A study of Mus musculus with 16 samples.

Results

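The late cornified envelope (Lce) and small proline-rich (Sprr) genes, loricrin (Lor) and involucrin (Ivl) encode the proteins that are cross-linked into the cornified envelope of the outermost skin cells. They were taken here as every target whose mouse symbol begins with Lce or Sprr and a digit, plus Lor and Ivl, which gave 13 of 23930 targets. RefSeq (GRCm38.p6) lists 40 such genes, all on chromosome 3, and the other 27 were not analysed here. The 13 measured genes are 5 of 14 Lce1 genes (Lce1e, Lce1g, Lce1i, Lce1k and Lce1m), Lce6a, 1 of 2 Sprr1 genes (Sprr1b), 3 of 13 Sprr2 genes (Sprr2f, Sprr2g and Sprr2j-ps), Sprr4, Lor and Ivl. None of the 6 Lce3 genes is among them. Reads were found for all 13 genes, and 12 had enough counts to be tested. Sprr2j-ps, with 44 reads in 9 of the 16 libraries, was not tested. Sprr2g and Sprr2j-ps are annotated as transcribed pseudogenes.

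The study asked what MCPIP1 does in keratinocytes and in myeloid cells of the skin. The Zc3h12a gene encodes this protein (Regnase-1), an RNase that cuts messenger RNAs of many inflammatory mediators. Whole skin of 12-week mice was profiled in 4 groups of 4 mice, and every mouse carried loxP-flanked Zc3h12a on both chromosomes. Control mice carried no Cre, EKO mice carried 1 Krt14Cre transgene, MKO mice carried 1 LysMCre allele, and EMdKO mice carried both. The Krt14 promoter is active in basal keratinocytes and in other epithelial cells of skin, and the LysM promoter in macrophages and neutrophils. No group carried a Cre with an unfloxed Zc3h12a, so an effect of Cre itself and an effect of the deletion cannot be told apart.

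During terminal differentiation keratinocytes move from the basal layer through the spinous and granular layers and die as flattened corneocytes. Transglutaminases cross-link precursor proteins under the plasma membrane: involucrin forms an early scaffold, loricrin supplies most of the mass, Sprr proteins act as bridges between other precursors, and Lce proteins join late. Their genes lie together in the epidermal differentiation complex, and several Sprr genes are known for high expression in injured or inflamed epidermis. In RefSeq order along the chromosome the measured genes run Lor, Sprr2f, Sprr2g, Sprr2j-ps, Sprr1b, Sprr4, Ivl, Lce6a, Lce1e, Lce1g, Lce1i, Lce1k and Lce1m. The Lce3 genes lie between Lce1k and Lce1m.

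The promoters of the genes on which the results turn are printed first. Lce1e, Lce1g, Lce1i and Lce1k carry a stretch just upstream of the start that was found in no other measured promoter. Sequences are from RefSeq (GRCm38.p6) and end at the base before the transcription start, written 5′ to 3′ on the strand of the gene. A promoter was found for 11 of the 13 genes, and 250 bases upstream of the start were searched. Capitals mark TGAGTCA or its reverse complement TGACTCA (the binding motif of AP-1 factors, searched on both strands), TATAAA (the TATA box, on the strand of the gene), ATTTGCAT (the octamer motif, on both strands) and GAATAAAA (on the strand of the gene). The last was picked out after the sequences had been read. Its match to Lce1e, Lce1g, Lce1i and Lce1k is thus no test of a link to their change. Promoters of the unmeasured Lce1 genes are not given here. GAATAAAA does not overlap a TATAAA in any of these genes.
Lce1e, chr3:92709075-92709184, minus strand: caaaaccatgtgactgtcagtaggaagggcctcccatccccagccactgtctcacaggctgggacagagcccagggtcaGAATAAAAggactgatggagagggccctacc
Lce1g, chr3:92752339-92752448, minus strand: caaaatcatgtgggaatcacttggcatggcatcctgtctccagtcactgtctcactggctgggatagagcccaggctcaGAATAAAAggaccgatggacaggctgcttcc
Lce1i, chr3:92778900-92779009, minus strand: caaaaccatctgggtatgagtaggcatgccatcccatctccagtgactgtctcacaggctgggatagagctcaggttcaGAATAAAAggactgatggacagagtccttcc
Lce1k, chr3:92807892-92808001, minus strand: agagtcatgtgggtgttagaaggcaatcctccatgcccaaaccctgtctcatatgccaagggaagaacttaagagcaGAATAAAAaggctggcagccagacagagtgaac
Lce1m, chr3:93019062-93019171, minus strand: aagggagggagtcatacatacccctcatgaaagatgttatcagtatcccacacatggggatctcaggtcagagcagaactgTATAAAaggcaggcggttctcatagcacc
Lor, chr3:92083143-92083252, minus strand: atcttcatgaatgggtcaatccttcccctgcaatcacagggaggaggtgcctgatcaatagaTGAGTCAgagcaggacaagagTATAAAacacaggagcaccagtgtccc
Ivl, chr3:92573736-92573865, minus strand: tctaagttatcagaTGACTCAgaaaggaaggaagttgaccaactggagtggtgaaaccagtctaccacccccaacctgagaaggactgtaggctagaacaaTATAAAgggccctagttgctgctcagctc
Sprr2f, chr3:92364977-92365186, plus strand: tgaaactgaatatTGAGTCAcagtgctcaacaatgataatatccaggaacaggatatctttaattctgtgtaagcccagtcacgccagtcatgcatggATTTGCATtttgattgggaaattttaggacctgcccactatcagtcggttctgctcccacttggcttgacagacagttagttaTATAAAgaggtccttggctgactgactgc

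GAATAAAA began 31 bases upstream of the start in Lce1e, Lce1g and Lce1i and 33 bases upstream in Lce1k. Among all 32851 RefSeq promoters 0.740% held it in the same window. TATAAA was found in 5 of the 11 measured promoters (Lor, Sprr2f, Sprr1b, Ivl and Lce1m), between 27 and 30 bases upstream, against 7.59% of all promoters. TGAGTCA was found in Lor, 48 bases upstream, in Sprr2f, 197 bases upstream, and, as TGACTCA, in Ivl, 116 bases upstream. It was present in 4.46% of all promoters. The octamer was found only in Sprr2f among the 11, and in 1.60% of all promoters. Aligned at the start without gaps, the 110 bases of Lce1e, Lce1g and Lce1i were 79.1 to 84.5% identical to each other. Those of Lce1k were 23.6 to 26.4% identical to these 3, and those of Lce1m were 15.5 to 26.4% identical to the other 4. In this alignment Lce1k is out of step with the 3, since its GAATAAAA began at 33 and not 31 bases. Its low identity therefore does not show how alike the promoters are once gaps are allowed, and no gapped alignment was made. These matches describe letters only, and no binding was measured here.

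Reads of close relatives limit what a count means. The transcript of Lce1e shared an exact run of 115 bases with Lce1j, that of Lce1g 113 bases with Lce1e, that of Lce1i 107 bases with Lce1h and that of Lce1k 105 bases with Lce1d. Sprr2f shared 53 bases with Sprr2e, and Lce1m 38 bases with Lce1l. For Lor, Ivl, Lce6a, Sprr1b and Sprr4 the longest shared run was 13 to 20 bases. The position of each amplicon was not given in the sources used here, so the values of Lce1e, Lce1g, Lce1i, Lce1k and the Sprr2 genes are uncertain as to which copy was read. Counts come from 1 amplicon per target, so levels are compared between mice and not between genes.

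Libraries held 6962474 to 12086327 counts on targets, and the 13 genes took 0.36 to 1.30% of them. Levels are given in CPM, the count scaled to a common library total after adjustment for library composition. Zc3h12a, the targeted gene, was at 19.4 to 30.2 CPM in control mice, 17.1 to 35.0 in MKO, 7.06 to 11.6 in EKO and 4.41 to 5.70 in EMdKO, so both Krt14Cre groups lay below both others. By edgeR its log2 fold change was called in EMdKO against Control (-2.21) and in EMdKO against MKO (-2.32). It was also called in the average of EKO against Control and EMdKO against MKO (-1.92). It was not called in EKO against Control (-1.52) or in MKO against Control (0.10). EKO mouse 1 stood apart: it had the highest Zc3h12a of its group and was the lowest EKO mouse for all 13 genes. Its Zc3h12a, at 11.6 CPM, was still below every mouse without Krt14Cre. Whether its genotype and tissue piece are as labelled was not tested, and every EKO value here rests on that label. Its summed level of 9 basal keratinocyte genes (Krt5, Krt14 and others, all detected) was 7159 CPM, against 12718 to 14467 CPM in the other EKO mice. Its sum of 10 skeletal muscle genes was 63222 CPM, against 28356 to 44403 CPM. Over all groups these sums did not single it out. MKO mouse 1 had 109651 CPM of muscle and 7412 CPM of basal keratinocyte genes, and control mouse 1 had 7021 CPM of basal keratinocyte genes. Within EMdKO, mouse 2 was lowest for 11 of the 13 genes and mouse 3 was highest for 10. The sums of hair shaft genes overlapped between groups, at 32.4 to 28112 CPM in controls, 64.2 to 5142 in EKO, 13.9 to 331 in MKO and 21.3 to 4201 in EMdKO. Their medians were far apart, at 2855, 1058, 18.3 and 43.2 CPM in that order. In MKO against Control 0 of 17 tested hair shaft genes had a positive log2 fold change (median -6.85). In EMdKO against MKO all 17 did (median 3.40), and none was called by edgeR in either comparison. In whole skin, fewer cells of a type and less RNA per cell cannot be told apart.

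**Figure D1:**
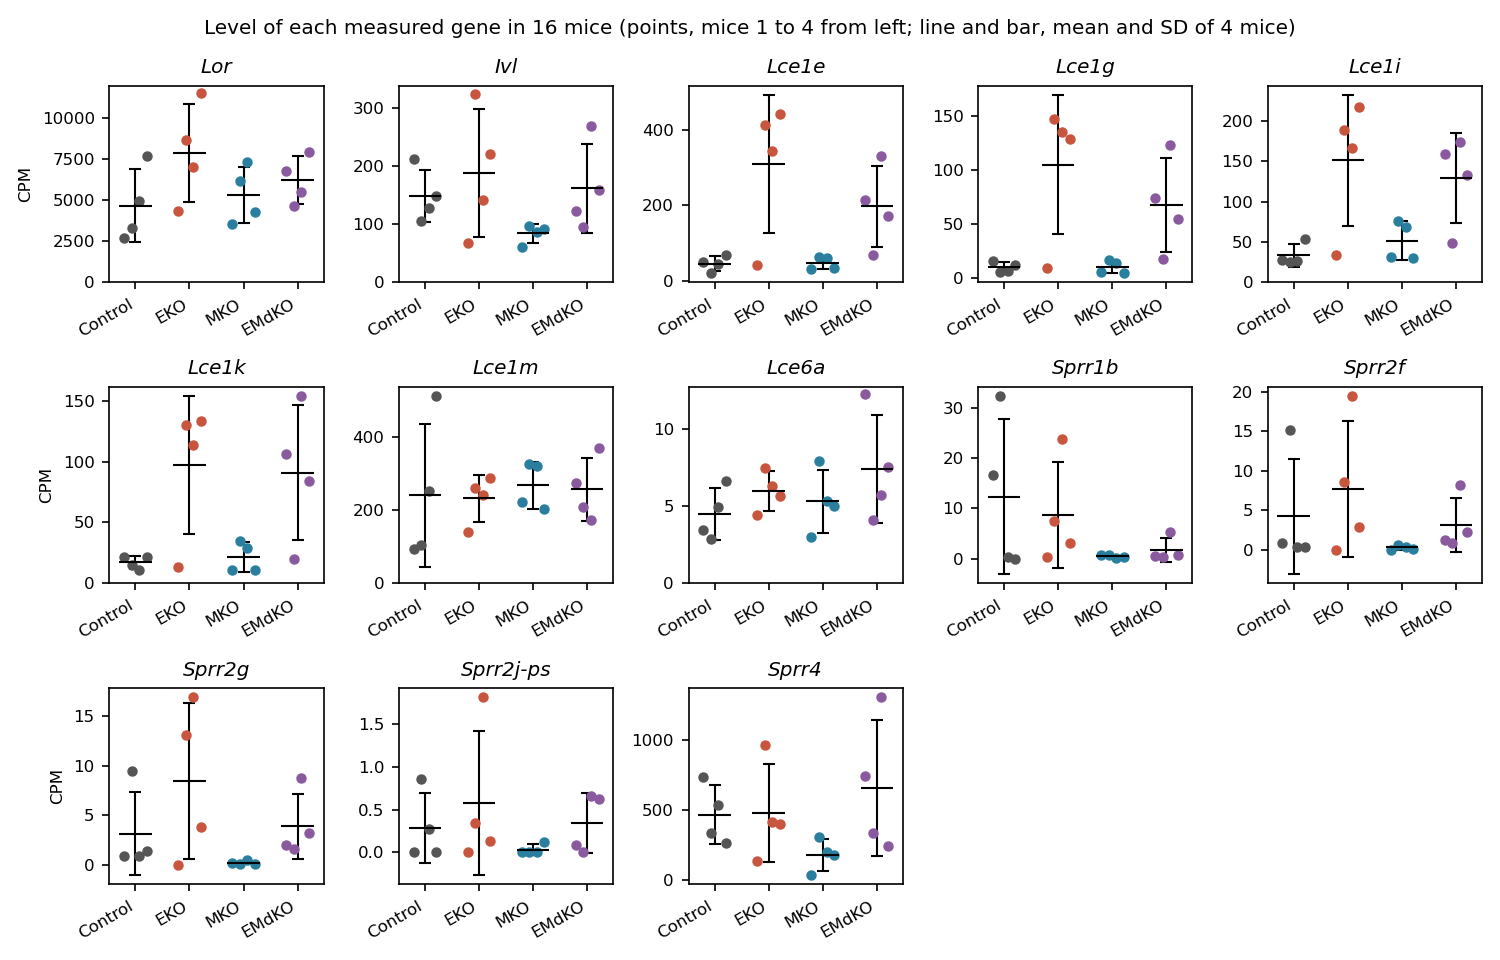
Level in CPM (vertical axis, linear, from 0, own scale per gene) of the 13 genes in the 4 groups; points are mice 1 to 4 from left to right, the line and bar are the mean and SD of 4 mice. Lce1e, Lce1g, Lce1i and Lce1k are high in EKO mice 2 to 4 and low in EKO mouse 1, Lor and Lce1m overlap in all groups, and Sprr1b, Sprr2f and Sprr2g are near 0 in all MKO mice.

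Lce1e, Lce1g, Lce1i and Lce1k rose with Krt14Cre. All 4 encode small envelope proteins of the late cornified layers. In the mean effect of Krt14Cre, the average of EKO against Control and EMdKO against MKO with 8 carriers and 8 non-carriers, they were the genes that passed an adjusted p under 0.05. That is 4 of the 12 tested genes, all higher, against 0.924% of the 13633 genes tested (106 of 126 called genes were higher, 0.778% of those tested). The 4 have transcripts with exact runs of 105 to 115 bases shared with a close relative, which is Lce1e for Lce1g. Their counts may therefore not be 4 separate signals. EKO mouse 1 and EMdKO mouse 2 were the lowest of their groups for all 4. An unadjusted p under 0.05 was reached by 7 of the 12, against 11% of all genes. The fitted log2 fold change was positive for 11 of the 12 genes, with a median of 1.35, against a median of -0.02 and 45.2% positive over all genes tested.

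Lce1g was at 15.8, 5.17, 5.97 and 12.1 CPM in controls 1 to 4 and at 8.66, 147, 135 and 129 CPM in EKO mice 1 to 4. It was at 5.32, 16.5, 14.0 and 4.64 CPM in MKO mice and at 73.8, 17.7, 123 and 54.9 CPM in EMdKO mice. Every EMdKO mouse lay above every control and MKO mouse, whereas EKO mouse 1 lay among the controls. The 8 carriers had a mean of 86.2 ± 55.0 CPM (SD, n = 8) and the 8 non-carriers 9.95 ± 5.18 CPM (SD, n = 8). The mean effect was a log2 fold change of 3.08 ± 0.52 (SE; edgeR quasi-likelihood, adjusted p = 0.0133), an 8.43-fold difference.

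Lce1e was at 47.9, 19.1, 44.6 and 66.5 CPM in controls 1 to 4 and at 42.5, 413, 343 and 441 CPM in EKO mice 1 to 4. It was at 31.6, 62.1, 58.6 and 33.8 CPM in MKO mice and at 214, 69.0, 332 and 172 CPM in EMdKO mice. EMdKO again did not overlap with Control or MKO, although EMdKO mouse 2 lay only just above the highest control. The mean effect of Krt14Cre was 2.44 ± 0.42 (log2, SE; edgeR, adjusted p = 0.0145), or 5.42-fold.

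Lce1k was at 21.8, 15.1, 10.7 and 21.3 CPM in control mice and at 13.1, 130, 113 and 133 CPM in EKO mice. The MKO mice were at 11.3, 35.0, 29.2 and 11.3 CPM and the EMdKO mice at 106, 20.1, 154 and 83.7 CPM. EKO mouse 1 and EMdKO mouse 2 lay within the range of the mice without Krt14Cre, and the other 6 carriers lay above all 8. The mean effect was 2.28 ± 0.45 (log2, SE; edgeR, adjusted p = 0.0251), or 4.87-fold.

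Lce1i was at 27.3, 25.3, 26.2 and 54.3 CPM in control mice and at 33.3, 189, 167 and 217 CPM in EKO mice. The MKO mice were at 31.0, 76.0, 68.3 and 30.1 CPM and the EMdKO mice at 159, 49.0, 174 and 134 CPM. The same 6 carriers lay above all mice without Krt14Cre. The mean effect was 1.76 ± 0.36 (log2, SE; edgeR, adjusted p = 0.0302), or 3.38-fold, the lowest of the 4.

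Lce1g and Lce1e passed the threshold in all 24 alternative analyses, with adjusted p up to 0.0426 and 0.0416 (edgeR, DESeq2 or limma). Lce1k passed in 13 of them and Lce1i in 12. Neither passed when basal keratinocyte levels were a covariate (edgeR, adjusted p = 0.0739 for Lce1k and 0.0571 for Lce1i), while the log2 fold changes stayed at 2.01 and 1.42 and 0.433% of all genes were called. Leaving out any of 9 mice left 2 genes called, Lce1g and Lce1e: EKO mice 2, 3 and 4, EMdKO mouse 3, MKO mice 1, 3 and 4, and control mice 2 and 3. The adjusted p was then 0.0513 to 0.0677 for Lce1k and 0.0546 to 0.0769 for Lce1i (edgeR). Lce1i alone was also lost without EMdKO mouse 1 (adjusted p = 0.0563, edgeR) or EMdKO mouse 4 (0.0526). Without EKO mouse 1, 5 of the 12 genes were called against 2.59% of 13756 genes tested, Sprr2g being the fifth (edgeR, adjusted p = 0.0202). That mouse was the lowest of its group for all 13 genes, so its removal raises the EKO means by construction. Calls gained without it, here and below, are no separate support.

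**Figure D2:**
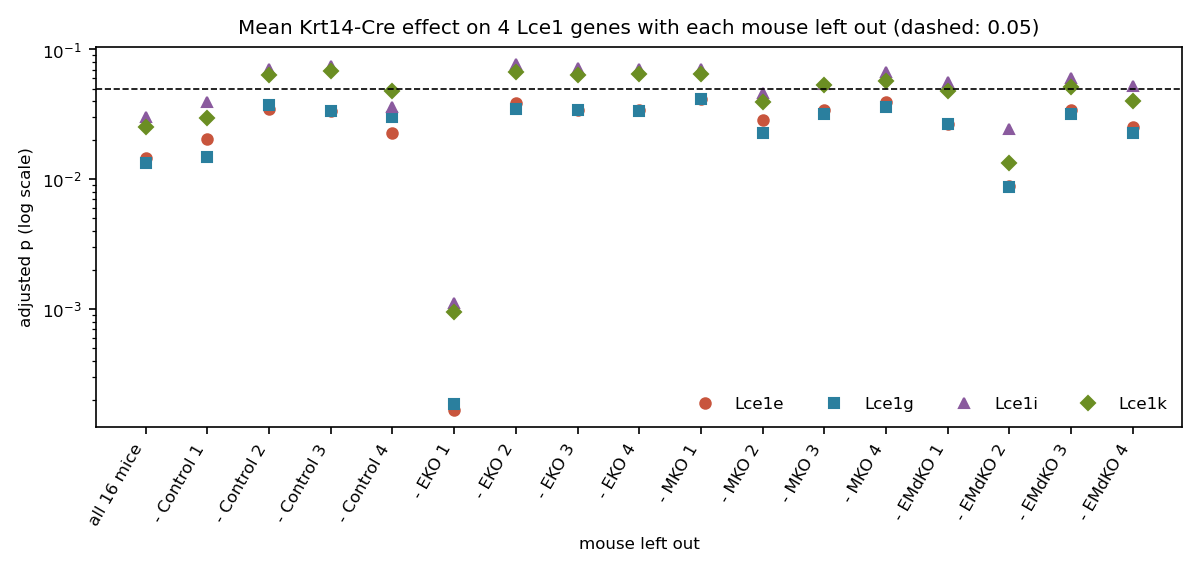
Adjusted p (vertical axis, log scale) of the mean Krt14Cre effect for Lce1e, Lce1g, Lce1i and Lce1k with all 16 mice and with each mouse left out (horizontal axis); the dashed line is 0.05. Lce1e and Lce1g stay under the line throughout, Lce1i and Lce1k cross it for 9 mice left out and Lce1i for EMdKO mice 1 and 4 as well, and all 4 are lowest without EKO mouse 1.

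The 2 comparisons behind that effect were read separately, since EKO against Control and EMdKO against MKO share no mouse. In EKO against Control none of the 12 genes was called by edgeR (0% of all genes tested were called, and 6.9% had an unadjusted p under 0.05). Lce1e, Lce1g, Lce1i and Lce1k had an unadjusted p under 0.05, with log2 fold changes of 2.80 ± 0.60, 3.42 ± 0.75, 2.19 ± 0.52 and 2.50 ± 0.65 (SE) and adjusted p of 0.229, 0.229, 0.310 and 0.363 (edgeR). None of the 12 genes was free of overlap between these groups, against 2.26% of all genes. DESeq2 called 3 of them, Lce1e, Lce1g and Lce1i, and 0.374% of all genes. Without EKO mouse 1 all 4 were called, against 0.923% of all genes tested, at log2 fold changes of 3.16, 3.81, 2.52 and 2.87 (edgeR, adjusted p = 0.00198, 0.00313, 0.00718 and 0.0136). As it was the lowest EKO mouse for all 4, higher fold changes without it were fixed in advance.

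In EMdKO against MKO none of the 12 was called by edgeR, against 0.00734% of all genes tested, and 8 had an unadjusted p under 0.05, all with higher values in EMdKO, against 7.42% of all genes tested. The log2 fold changes were 2.73 ± 0.73 for Lce1g, 2.08 ± 0.58 for Lce1e, 2.07 ± 0.64 for Lce1k and 1.33 ± 0.50 for Lce1i (SE; edgeR, adjusted p = 0.224, 0.248, 0.308 and 0.50). Lce1e, Lce1g, Sprr2f and Sprr2g did not overlap between these groups, against 5.99% of all genes. DESeq2 called Lce1g, and 1.07% of all genes. EKO mouse 1 is in neither group but enters the shared fit and its expression filter, and without it Lce1g and Lce1e were called, against 0.691% of all genes tested (edgeR, adjusted p = 0.0273 and 0.0311).

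Whether the Krt14Cre effect differed with and without LysMCre was tested as an interaction. It was not called for any of the 12 genes by edgeR, DESeq2 or limma, and none had an unadjusted p under 0.05 by edgeR, against 0% called and 3.41% under an unadjusted 0.05 over all genes. The interaction was -0.72 ± 0.80 for Lce1e, -0.70 ± 0.98 for Lce1g, -0.86 ± 0.70 for Lce1i and -0.43 ± 0.87 for Lce1k on the log2 scale (SE), and all 4 lie within 2 SE of 0.

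EMdKO against Control, which shares its control mice with EKO against Control, gave log2 fold changes of 2.79 ± 0.73 for Lce1g, 2.40 ± 0.65 for Lce1k, 2.14 ± 0.58 for Lce1e and 1.96 ± 0.51 for Lce1i (SE). None of the 12 genes was called by edgeR (adjusted p = 0.339 to 0.358 for these 4), against 0.0293% of all genes, and 5 had an unadjusted p under 0.05 against 8.16%. DESeq2 called Lce1g and Lce1i, and 0.535% of all genes. Without EKO mouse 1 edgeR called Lce1g and Lce1e (adjusted p = 0.0434 and 0.0465), against 0.291% of all genes. Lce1e and Lce1g did not overlap between EMdKO and control mice, against 3.68% of all genes. In EMdKO against EKO none of the 12 genes was called by edgeR or an alternative, against 0.0147% of all genes, none had an unadjusted p under 0.05, against 6.59%, and none was free of overlap, against 5.58%.

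**Figure D3:**
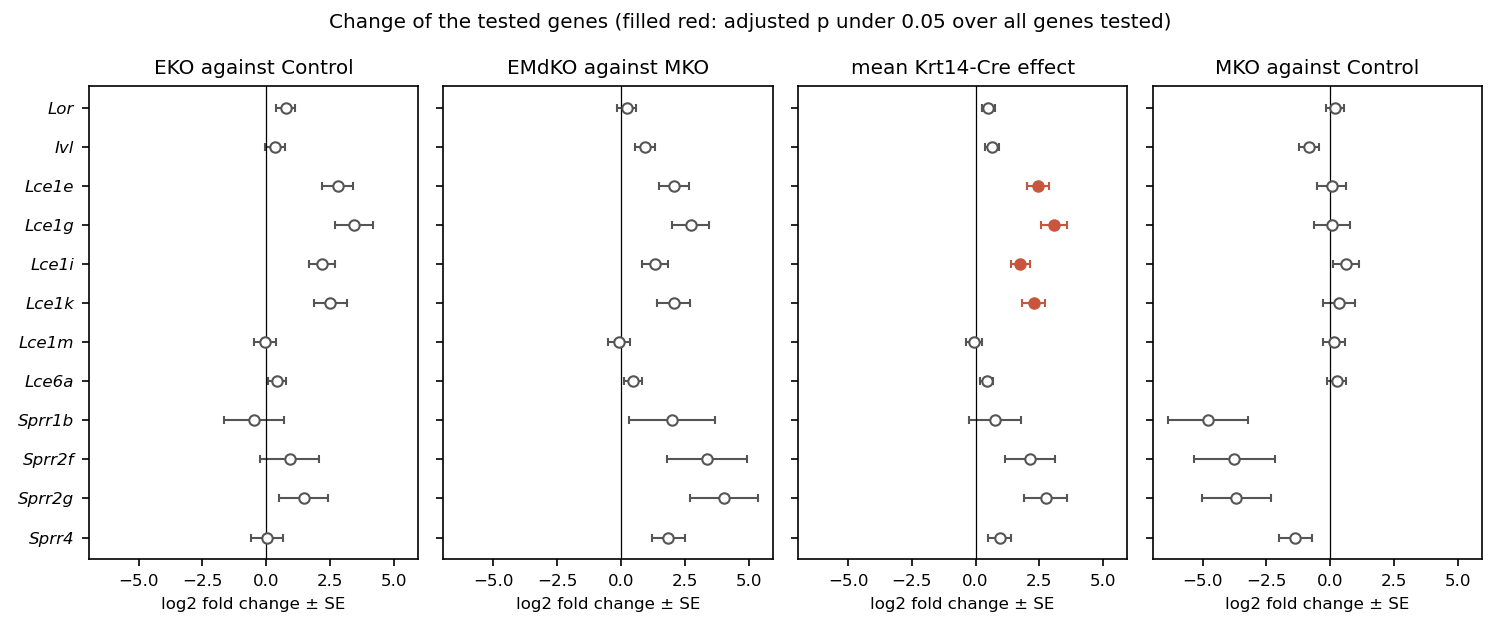
Fitted log2 fold change (horizontal axis) with its SE for the 12 tested genes in EKO against Control, EMdKO against MKO, the mean Krt14Cre effect and MKO against Control; filled red points have an adjusted p under 0.05 over all genes tested. Lce1e, Lce1g, Lce1i and Lce1k are red in the mean effect and lie right of 0 in the first 3 panels, Lce1m lies near 0, and Sprr1b, Sprr2f and Sprr2g lie left of 0 in MKO against Control.

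Lce1m and Lce6a did not pass any test. Lce1m, the Lce1 gene beyond the Lce3 cluster, was at 93.1, 104, 253 and 515 CPM in control mice and at 140, 261, 243 and 288 CPM in EKO mice. The MKO mice were at 223, 327, 321 and 203 CPM and the EMdKO mice at 276, 208, 174 and 371 CPM. The controls alone spanned the range of all 16 mice, and all groups overlapped. The mean Krt14Cre effect was -0.06 ± 0.31 (log2, SE; edgeR, adjusted p = 0.968). It turned to 0.13 with hair shaft levels as a covariate and to 0.29 without control mouse 4, and it was also above 0 without EKO mouse 1 (0.034) or EMdKO mouse 3 (0.018).

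Lce6a, which stands apart from the Lce1 and Lce3 genes in sequence, was at 3.46, 2.87, 4.95 and 6.61 CPM in control mice and at 4.43, 7.49, 6.30 and 5.64 CPM in EKO mice. In MKO mice it was at 2.98, 7.95, 5.36 and 5.01 CPM and in EMdKO mice at 12.3, 4.11, 5.70 and 7.55 CPM. All groups overlapped, and the mean Krt14Cre effect was 0.44 ± 0.25 (log2, SE; edgeR, adjusted p = 0.566).

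Lor and Ivl, the 2 classical envelope precursors, were not called in any comparison. Lor was at 2709, 3309, 4951 and 7647 CPM in control mice and at 4324, 8624, 6996 and 11478 CPM in EKO mice. In MKO mice it was at 3527, 6146, 7284 and 4251 CPM and in EMdKO mice at 6771, 4664, 5461 and 7938 CPM. The groups overlapped, with EKO mouse 4 the highest of all 16. The mean Krt14Cre effect was 0.49 ± 0.26 (log2, SE; edgeR, adjusted p = 0.523).

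Ivl was at 212, 106, 128 and 149 CPM in control mice and at 67.4, 325, 143 and 221 CPM in EKO mice. In MKO mice it was at 60.4, 97.0, 86.8 and 92.4 CPM and in EMdKO mice at 122, 95.7, 270 and 160 CPM. Every MKO mouse lay below every control mouse, which held for Ivl and Sprr2g among the 12 genes and for 3.09% of all genes in either direction. The mean Krt14Cre effect was 0.65 ± 0.28 and that in EMdKO against MKO 0.94 ± 0.40 (log2, SE; edgeR, adjusted p = 0.397 and 0.595).

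Among Sprr1b, Sprr2f, Sprr2g and Sprr2j-ps, 1 mouse in each of the Control, EKO and EMdKO groups was highest for all 4 genes: control mouse 2, EKO mouse 3 and EMdKO mouse 3. Sprr1b, a cornifin, was at 16.7, 32.3, 0.280 and 0 CPM in control mice and at 0.412, 7.49, 23.8 and 3.02 CPM in EKO mice. It was at 0.626, 0.757, 0.119 and 0.251 CPM in MKO mice and at 0.497, 0.363, 5.32 and 0.734 CPM in EMdKO mice. The 0 in control mouse 4 allows up to 0.374 CPM at the 95% level (3 counts).

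Sprr2f was at 0.866, 15.2, 0.373 and 0.374 CPM in control mice and at 0, 8.54, 19.5 and 2.89 CPM in EKO mice. It was at 0, 0.631, 0.357 and 0.125 CPM in MKO mice and at 1.24, 0.847, 8.17 and 2.20 CPM in EMdKO mice. A count of 0 allows up to 0.309 CPM in EKO mouse 1 and 0.470 CPM in MKO mouse 1. EMdKO lay above MKO throughout, and the EKO range covered both.

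Sprr2g was at 0.866, 9.48, 0.933 and 1.37 CPM in control mice and at 0, 13.2, 17.0 and 3.81 CPM in EKO mice. It was at 0.157, 0.126, 0.476 and 0.125 CPM in MKO mice and at 1.99, 1.57, 8.74 and 3.25 CPM in EMdKO mice. MKO lay below Control and below EMdKO without overlap, whereas EKO spanned from 0 to the highest value. Sprr2j-ps was at most 1.82 CPM in any mouse, with counts in 2 control, 3 EKO, 1 MKO and 3 EMdKO mice.

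**Figure D4:**
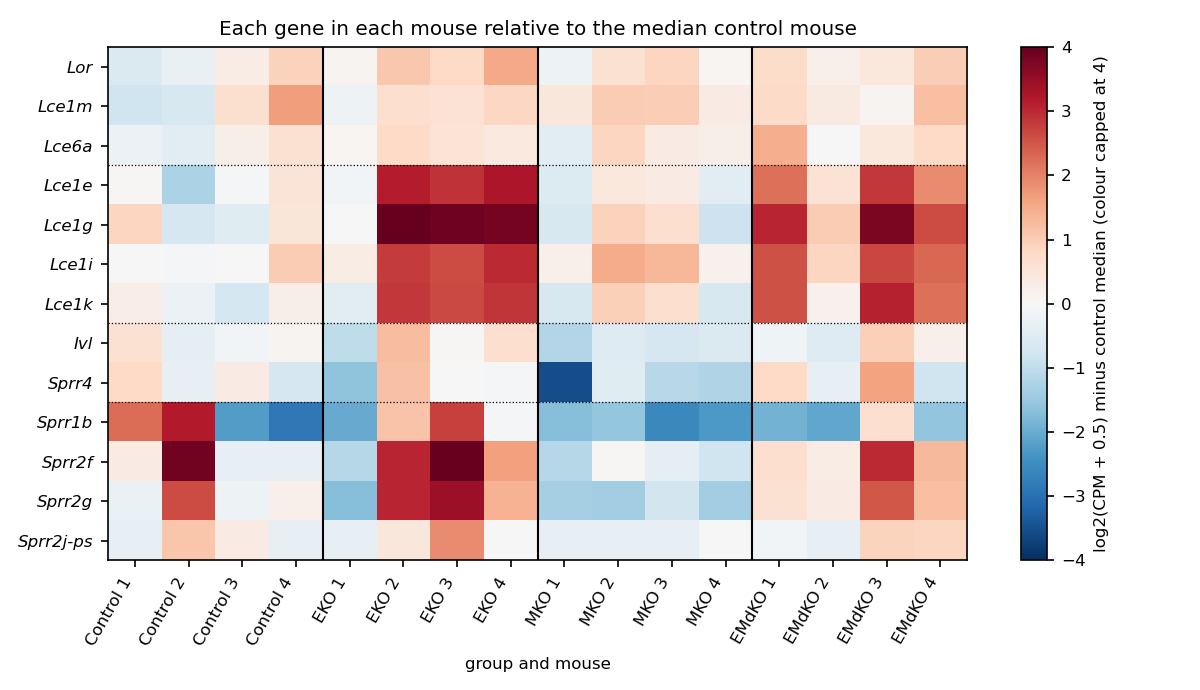
Each gene (rows) in each mouse (columns, by group) as log2(CPM + 0.5) minus the median of the 4 control mice, with red above and blue below it and colour capped at 4. The rows of Lce1e, Lce1g, Lce1i and Lce1k are red in EKO mice 2 to 4 and in EMdKO mice 1, 3 and 4, EKO mouse 1 stands out among EKO mice, and the 4 lowest rows are reddest in control mouse 2, EKO mouse 3 and EMdKO mouse 3.

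None of these Sprr genes was called by edgeR in any comparison with all mice. In MKO against Control the log2 fold change was -4.79 ± 1.58 for Sprr1b, -3.75 ± 1.58 for Sprr2f and -3.68 ± 1.36 for Sprr2g (SE; edgeR, adjusted p = 0.334, 0.454 and 0.379), against 0.0293% of all genes called and 9.58% with an unadjusted p under 0.05. Without control mouse 2 they were -3.67, -0.84 and -2.15. Limma with sample weights gave -0.60, -0.91 and -2.22. The mean LysMCre effect was -3.54 ± 1.03 for Sprr1b, -2.53 ± 0.98 for Sprr2f and -2.40 ± 0.83 for Sprr2g (SE; edgeR, adjusted p = 0.178, 0.294 and 0.240), against 0.044% of all genes called and 13.1% with an unadjusted p under 0.05. DESeq2 called Sprr1b lower (adjusted p = 0.0394), and 1.9% of all genes in either direction. Without control mouse 2 the 3 values were -2.98, -1.07 and -1.63.

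With Krt14Cre the log2 fold change was 2.74 ± 0.83 for Sprr2g, 2.14 ± 0.99 for Sprr2f and 0.75 ± 1.03 for Sprr1b (SE; edgeR, adjusted p = 0.176, 0.439 and 0.854). Sprr1b had a mean of 5.20 CPM in carriers and 6.38 CPM in non-carriers, so its fitted change, which averages 2 log ratios, has the opposite sign to the difference of its means. Its fitted change was -0.093 without EMdKO mouse 3. In EMdKO against MKO the log2 fold change was 4.02 ± 1.33 for Sprr2g and 3.37 ± 1.58 for Sprr2f (SE; edgeR, adjusted p = 0.365 and 0.665), and Sprr2g was called when these 2 groups were fitted alone (adjusted p = 0.0337), as were 0.686% of all genes. In EMdKO against Control Sprr1b was at -2.79 ± 1.30 (log2, SE; edgeR, adjusted p = 0.611), which limma with sample weights turned to 0.58. Krt16, a keratin of injured and inflamed epidermis, was at 80.0, 369, 39.0 and 29.8 CPM in control mice, 21.5, 418, 1164 and 153 CPM in EKO mice, 9.28 to 25.5 CPM in MKO and 44.9 to 92.7 CPM in EMdKO. Within Control, EKO and EMdKO its highest mice were control mouse 2, EKO mouse 3 and EMdKO mouse 3, as for Sprr1b, Sprr2f and Sprr2g. The hair shaft sum was also highest in EMdKO mouse 3 (4201 CPM), but otherwise in control mouse 1 (28112 CPM) and EKO mouse 1 (5142 CPM). A sum of 5 genes of other stratified epithelium was highest in the same mice. It was 92.3 CPM in EMdKO mouse 3, 151 CPM in control mouse 1 and 14.6 CPM in EKO mouse 1. Krt84 alone made up 80.4, 147 and 7.42 CPM of it in these mice. Krt24, also on that list, was highest in EMdKO mouse 2 (13.2 CPM), control mouse 2 (11.8 CPM) and EKO mouse 1 (6.08 CPM). The sum thus reflects mainly Krt84 where it was high. The part of these levels in the Sprr values was not tested.

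Sprr4 was at 732, 335, 537 and 266 CPM in control mice and at 140, 961, 415 and 400 CPM in EKO mice. In MKO mice it was at 36.2, 306, 199 and 183 CPM and in EMdKO mice at 744, 335, 1304 and 244 CPM. All groups overlapped. It had an unadjusted p under 0.05 in MKO against Control, at -1.37 ± 0.64, and in EMdKO against MKO, at 1.86 ± 0.65 (log2, SE; edgeR, adjusted p = 0.517 and 0.417). The mean Krt14Cre effect was 0.95 ± 0.45 (log2, SE; edgeR, adjusted p = 0.459).

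The partners of these proteins in the envelope were read from a list of 29 genes, of which 25 were measured and 24 tested. With Krt14Cre 3 of the 24 were called, all higher, against 0.924% of all genes called and 0.778% called higher. They were repetin (Rptn) at 2.72 ± 0.54, hornerin (Hrnr) at 1.69 ± 0.30 and filaggrin (Flg) at 1.68 ± 0.36 (log2, SE; edgeR, adjusted p = 0.0251, 0.0158 and 0.0350). All 3 are S100-fused proteins of the granular and cornified layers. The trait does not set them apart, since filaggrin 2 (Flg2), another S100-fused protein on the list, was not called. Its mean Krt14Cre effect was 0.11 ± 0.24 (log2, SE; edgeR, adjusted p = 0.918). Hrnr was at 92.7 CPM in EKO mouse 1 and at 602 to 683 CPM in the other EKO mice, against 96.1 to 182 CPM in controls, and EMdKO mice were at 270 to 457 CPM against 102 to 142 CPM in MKO. The low EKO mouse is thus the same one as for the Lce1 genes. The median over the 24 genes was 0.46, and all 24 had a positive log2 fold change, against -0.02 and 45.2% over all genes. Hrnr passed in 24 of 24 alternatives, Rptn in 13 and Flg in 11.

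Of 6 suprabasal keratins 5 were tested and Krt1, which replaces basal keratins when cells leave the basal layer, was higher with Krt14Cre at 1.63 ± 0.37 (log2, SE; edgeR, adjusted p = 0.0457), in 9 of 24 alternatives. Krt10, its partner, was at 0.69 ± 0.28 (edgeR, adjusted p = 0.357). Among 2 tested stress keratins, Krt16 at 1.84 ± 0.64 and Krt17 at 0.52 ± 0.23 were not called (edgeR, adjusted p = 0.258 and 0.404). None of 19 tested regulators of epidermal differentiation was called by edgeR, and their median was 0.11. Klf4, a transcription factor needed for the skin barrier, was at 0.21 ± 0.19 and Junb, an AP-1 subunit, at -0.0071 ± 0.17 (edgeR, adjusted p = 0.755 and 0.993).

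From a list of 15 interleukin genes described as inducers of Sprr and Lce genes, 8 were tested and 4 rose with Krt14Cre, with a median of 1.66 over the 8, against 0.924% of all genes called and a median of -0.02. Il1f6 (IL-36 alpha) was at 1.61 to 1.77 CPM in controls, 0.515 CPM in EKO mouse 1 and 79.3 to 92.3 CPM in the other EKO mice. It was at 0.470 to 1.64 CPM in MKO and 30.4 to 58.4 CPM in EMdKO mice, without overlap. Its mean Krt14Cre effect was 5.21 ± 0.63 (log2, SE; edgeR, adjusted p = 0.00223). Il1f8 (IL-36 beta) was at 2.49 ± 0.36, Il1a (IL-1 alpha) at 1.87 ± 0.35 and Il1f9 (IL-36 gamma) at 1.65 ± 0.29 (log2, SE; edgeR, adjusted p = 0.00583, 0.0204 and 0.0159). The 3 IL-36 genes passed in all 24 alternatives and Il1a in 19, with adjusted p = 0.0590 under the basal keratinocyte covariate and 0.0508 to 0.0561 without EKO mouse 2, 3 or 4 or MKO mouse 1 (edgeR). The part of these cytokines in the Lce1 values was not tested.

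Markers of cell types were set beside the Lce1 result. The summed basal keratinocyte genes were at 7021 to 13642 CPM in control mice, 7159 to 14467 in EKO, 7412 to 11693 in MKO and 10111 to 13567 in EMdKO. None of the 9 was called with Krt14Cre by edgeR, with a median log2 fold change of 0.10. Among 10 sebaceous gland genes all had a positive log2 fold change, with a median of 1.07, and Elovl3, a fatty acid elongase, and Awat1, a wax synthase, were higher at 2.04 ± 0.32 and 2.02 ± 0.40 (log2, SE; edgeR, adjusted p = 0.00790 and 0.0251), in 24 and 15 of 24 alternatives. Awat1 was lost under the basal keratinocyte covariate (adjusted p = 0.0571) and without EKO mouse 2, 3 or 4, EMdKO mouse 3, MKO mouse 1, 3 or 4 or control mouse 2 (0.0513 to 0.0676, edgeR). The summed level of these 10 genes overlapped between groups, at 1878 to 7771 CPM in controls, 3749 to 4851 in EKO, 2596 to 6252 in MKO and 3561 to 9007 in EMdKO. None of 17 hair shaft, 10 muscle, 8 fat, 6 fibroblast, 10 leukocyte and 4 melanocyte genes tested was called by edgeR in this comparison, and no listed marker of these types was at 0 in all libraries. The part of cell composition in the Lce1 values was not tested beyond the basal and hair shaft covariates, and with the latter all 4 passed (edgeR, adjusted p = 0.00828 for Lce1e and Lce1g, 0.0144 for Lce1i and 0.0189 for Lce1k).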

How the data were processed

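Total RNA of snap-frozen skin from 16 mice was made into Ion AmpliSeq mouse transcriptome libraries, per the labels' protocols, which amplify 1 short fragment of each targeted transcript. The deposited files hold raw read counts for 23930 RefSeq targets. HTSeq 0.6.0 and DESeq2 1.18.1 are named in the submitters' processing notes. The sources used here do not give the aligner, build or annotation. The 5 summary lines (3.111 to 5.252% of reads) were left out. Symbols came from RefSeq (22452 targets) and GENCODE vM21 (110), and 1368 targets had none.

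Groups came from the genotype labels. Counts were fitted in edgeR 4.0.16 (R 4.3.3; quasi-likelihood, TMM scaling, default expression filter, 1 mean per group, 16 mice, 12 residual degrees of freedom), tested 2-sided in 8 contrasts with Benjamini-Hochberg adjustment over 13633 genes and called at an adjusted p under 0.05. The SE is the log2 fold change divided by the square root of F. CPM is the count scaled to a common, TMM-adjusted library total. Levels are means ± SD, and an upper limit for a count of 0 is 3 counts at 95%, which covers counting error only. A p-value sets a group difference against the spread between mice, estimated with information shared across groups and genes.

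Alternatives were DESeq2 1.42.0, limma 3.58.1 (voom with sample weights), DESeq2 size factors in edgeR, no filter, a filter of CPM of 1 in 4 libraries, the mouse number as a block, hair shaft and basal keratinocyte covariates, the compared groups alone, and each mouse left out. The edgeR fit was also run on simulated counts, for EKO against Control only. It recovered 21 of 50 genes changed by a log2 of 1 and 46 of 50 changed by 2, with 8 false calls among 173. No simulated mouse was made to deviate, so this does not cover a case like EKO mouse 1. No pair of libraries looked copied (smallest chi-square per degree of freedom 14.43). Mouse numbers did not pair the mice, so no block was used.

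The 13 genes, the 14 marker and pathway lists and the tests were chosen with earlier results of these data known. Values in every mouse are given for Lor, Ivl, the gene of each subfamily with the highest mean CPM, every called gene and the gene with the smallest p in each contrast. The remaining genes are given because all 13 are accounted for. Other genes are named only from the lists: called ones, and otherwise the 2 with the highest mean CPM.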

Additional observations from a re-analysis of the deposited data

Results flagged for a closer look

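In 8 of 52 groups of 4 mice a single mouse lay far from the other 3 by Dixon's test at the 95% level. The chance rate of 1 in 20 holds for independent, normally distributed values. These are untransformed CPM of related genes in the same 16 mice, so 8 of 52 cannot be set against that rate. It applies least to the lowest counts, such as Sprr2j-ps in MKO (1 read in 1 mouse and 0 in the others) or Sprr2g in MKO (4 reads against 1 in each other mouse). EKO mouse 1 was low for Lce1g at 8.66 CPM, against 129 to 147 CPM in the other EKO mice, and for Lce1k at 13.1 CPM, against 113 to 133 CPM. Control mouse 4 was high for Lce1i at 54.3 CPM, against 25.3 to 27.3 CPM in the other controls.

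The other 5 are Sprr genes at low counts. Control mouse 2 was high for Sprr2f at 15.2 CPM, against 0.373 to 0.866 CPM, and for Sprr2g at 9.48 CPM, against 0.866 to 1.37 CPM. EMdKO mouse 3 was high for Sprr1b at 5.32 CPM, against 0.363 to 0.734 CPM. MKO mouse 3 was high for Sprr2g at 0.476 CPM, against 0.125 to 0.157 CPM, and MKO mouse 4 for Sprr2j-ps at 0.125 CPM, where the other 3 had no count. What sets these mice apart was not tested.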

How the results depend on the processing

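The number of genes called among the 12 moved in 5 of the 8 comparisons, and the cause was not tested. For the mean Krt14Cre effect it was 4 with all mice, 2 with the basal keratinocyte covariate and 2 to 5 when each mouse was left out (126, 59 and 40 to 356 of all genes). For EKO against Control it was 0, 3 by DESeq2 and 0 to 4 when each mouse was left out (0, 51 and 0 to 127 of all genes). For EMdKO against Control it was 0, 2 by DESeq2 and 0 to 2 when each mouse was left out (4, 73 and 2 to 40). For EMdKO against MKO it was 0, 1 by DESeq2, 1 with the 2 groups alone and 0 to 2 when each mouse was left out (1, 146, 90 and 1 to 95). For the mean LysMCre effect it was 0 and 1 by DESeq2 (6 and 259). In the first 4 of these comparisons the highest count among the 12 came without EKO mouse 1, level with DESeq2 for EMdKO against Control. Over all genes DESeq2 called more than that fit in EMdKO against Control (73 against 40) and EMdKO against MKO (146 against 95). For the mean Krt14Cre effect limma called 588 of all genes, against 356 without EKO mouse 1. Of 1240 single-gene values under the alternatives, 1140 kept direction and side of the threshold, 76 lost it, 17 gained it and 7 changed sign. The sign changes were Sprr1b in EMdKO against Control (0.58 by limma) and, for Krt14Cre, Sprr1b (-0.093 to 1.31 when each mouse was left out) and Lce1m (0.13 with the hair shaft covariate, -0.19 to 0.29 when each mouse was left out). Same-numbered mice did not deviate together (24 pairs, correlations of -0.543 to 0.61, mean -0.026, and 4 libraries closest to their own number). With the mouse number as a block 3 Lce1 genes were called for Krt14Cre in place of 4 (103 of all genes in place of 126), Lce1k falling to an adjusted p of 0.0552 (edgeR), and Lce1m was at 0.00065. Some 2-group fits gave no value for Sprr1b, Sprr2f or Sprr2g, which the expression filter removed there. Low counts limit Sprr1b, Sprr2f, Sprr2g and Sprr2j-ps most.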
